A study of Mus musculus with 8 samples.

Results

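T cells recognise antigen through the T cell receptor, and 37 genes of this recognition system were followed in 8 mouse mammary tumors: the chains of the receptor complex, its coreceptors, its signaling kinases and adaptors, costimulatory and cytokine receptors, and the regulators of the T helper lineages. The genes were named for their role in T cells by a rule that uses no measured value, but with earlier results of these data known. Each was represented by the probe set that the array annotation gives to that gene alone, with the highest mean over the 8 tumors where there were several. A probe set of this kind was found for 34 of the 37 genes, out of 19937 genes represented in the same way. Lck, Il2rg and Tcf7 were not analysed here, and every statement below covers the other 34.

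All tumors were grown from 4T1, a mammary carcinoma cell line, injected orthotopically into BALB/c mice and collected after 18 days. For 4 tumors (preirradiated) the fourth mammary gland had been locally exposed to 1 X-ray dose of 20 Gy ahead of the injection, and for the other 4 (nonirradiated) it had received no radiation. Whether every tumor had its own host animal is not stated in the labels, so p-values measure the spread between these tumors. Values are log2 signals after robust multi-array averaging (RMA), and a difference of 1.0 on this scale is a factor of 2.0. Values of a gene are given in the order of tumors 1 to 4 within a group; a number carried by a tumor of each group does not pair them.

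The receptor itself binds a peptide on a major histocompatibility complex molecule but cannot signal alone. The CD3 chains and the zeta chain carry the signaling motifs that the kinase Lck phosphorylates and to which Zap70 binds; Zap70 then phosphorylates the membrane adaptor Lat. The coreceptor CD4 marks helper cells and CD8 marks cytotoxic cells, and costimulatory receptors and cytokines decide whether a triggered cell divides and which effector program it takes. Whole tumor tissue was homogenised, so fewer T cells in a tumor and less RNA of a gene per T cell cannot be told apart.

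The tissue is labelled as mammary epithelial carcinoma. Krt8, a keratin of simple epithelium, stood at 12.5 ± 0.054 in nonirradiated and 12.6 ± 0.029 in preirradiated tumors (SD, n = 4 each), and the epithelial adhesion gene Epcam lay between 9.07 and 10.2 in all 8. The leukocyte gene Ptprc was also measured in every tumor, at 9.48 ± 0.12 and 9.30 ± 0.060. Levels of different probe sets do not give the shares of these cells. Correlations between arrays over all probe sets ran from 0.991 to 0.996. The summed signal of 6 skeletal muscle markers was 12.8 and 14.1 (log2) in preirradiated tumors 1 and 3 and between 8.91 and 9.34 in the other 6 tumors. Markers of adipocytes summed to 10.6 in preirradiated tumor 1 and to at most 9.32 elsewhere. Nonirradiated tumor 4 carried Glycam1, a mucin of lymph node venules, at 8.33, against at most 4.91 in any other tumor, and the B cell receptor component Cd79a at 5.69, against at most 4.76. The part of muscle, fat or lymph node tissue in the T cell results was not tested, and T cell genes and marker lists that lean on these tumors are given with and without them.

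Over the 34 genes the groups differed little. No gene passed correction for multiple testing, either among these genes (limma, smallest Benjamini-Hochberg adjusted p = 0.79) or among all 34738 probe sets tested (limma, smallest adjusted p = 0.544, with 2015 probe sets at an unadjusted p under 0.05). The mean was lower in preirradiated tumors for 28 of the 34 genes, where 52.6% of all genes were lower, and the median log2 difference was -0.069, against -0.0038 over all genes. An unadjusted p under 0.05 was reached by 2 of 34, Cd4 and Il2ra, both lower. Over all genes 5.66% reached it, 3.27% as lower and 2.39% as higher. The filter in the study's design text asks for a mean signal of 4.0 or more, a log2 difference of 0.4 or more (taken here in either direction) and an unadjusted p no higher than 0.05. It was passed by 0 of 34 and by 0.487% of all genes. The groups did not overlap for 1 gene, Cd4, which was lower in preirradiated tumors, as were 1.95% of all genes, while 1.7% of all genes were higher without overlap. Without preirradiated tumor 1 the median difference was -0.029. Genes of a single cell type vary together in whole tissue, so these counts are not counts of independent genes.

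**Figure D1:**
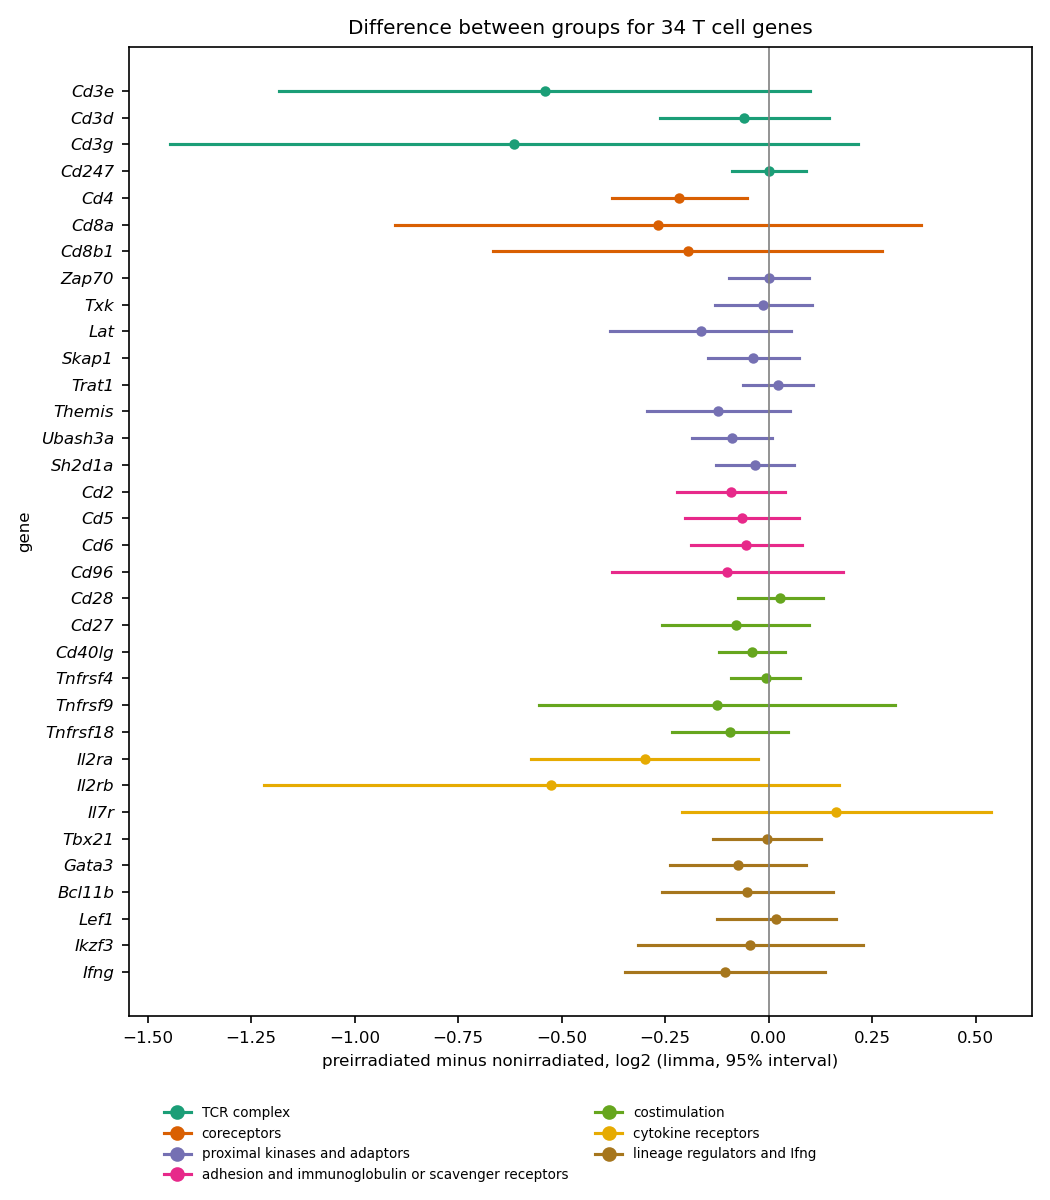
Log2 difference, preirradiated minus nonirradiated, on the horizontal axis for each of the 34 genes on the vertical axis, with the limma 95% interval as a bar and the role of the gene as color. The intervals of Cd4 and Il2ra lie below 0, and all others include it; Cd3e, Cd3g and Il2rb have the lowest estimates and the widest intervals.

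The receptor complex held the largest estimates. Cd3e (probe set 10593024), the epsilon chain that every receptor complex contains, was 9.05, 8.45, 8.47 and 8.64 in the nonirradiated tumors and 7.51, 8.68, 8.54 and 7.70 in the preirradiated tumors. Preirradiated tumors 1 and 4 lay below all nonirradiated tumors, whereas preirradiated tumors 2 and 3 lay within their range. The group difference was -0.54 (SE 0.28, 95% interval -1.18 to 0.10; limma adjusted p = 0.874), or 1.45-fold. It was -0.34 without preirradiated tumor 1. Without preirradiated tumor 2 or 3 Cd3e passed the study's filter, at -0.73 in the first case.

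Cd3g (probe set 10593015), the gamma chain that pairs with epsilon, followed the same order at both ends. Its values were 7.97, 6.84, 7.13 and 7.52 in nonirradiated and 5.999, 7.38, 7.28 and 6.33 in preirradiated tumors, a difference of -0.62 (SE 0.36, 95% interval -1.45 to 0.21; limma adjusted p = 0.892). Between nonirradiated tumor 1 and preirradiated tumor 1 it spanned 1.97 log2 units, a factor of 3.92 and the widest range of the 34 genes. The difference was -0.37 without preirradiated tumor 1.

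Cd3d (probe set 10584821), the delta chain, did not share this range. It was 5.55, 5.39, 5.46 and 5.43 in nonirradiated and 5.28, 5.22, 5.62 and 5.48 in preirradiated tumors, and it was highest in preirradiated tumor 3. Cd247 (probe set 10351353), which encodes the zeta chain, lay between 5.57 and 5.69 in all 8 tumors, with 5.58, 5.63, 5.58 and 5.69 against 5.64, 5.57, 5.63 and 5.65. Group differences were -0.059 (95% interval -0.26 to 0.15) for Cd3d and 0.00074 (95% interval -0.088 to 0.090) for Cd247. The mean signal of both genes was below 5.97, the median over all probe sets, as were 19 of the 34 genes.

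Cd3g, Cd3d and Cd3e are neighbours on mouse chromosome 9, and the start sites of Cd3g and Cd3d point away from each other over 1355 bases in the reference. The 3 probe sets differed in spread over the tumors and also in level, with means of 8.38 for Cd3e, 7.06 for Cd3g and 5.43 for Cd3d. Whether the narrow range of Cd3d reflects its RNA or a low response of its probe set was not tested. The promoters of these neighbours are shown with that of Cd8a, which varied like Cd3e. Each sequence runs 5′ to 3′ on the strand of its gene, from 250 bases before the start site to 50 after it, and comes from RefSeq, build GRCm38.p6; 27 of the 37 genes are in that table. The positions are chr9:45009562-45009861 (minus strand) for Cd3e, chr9:44980382-44980681 (minus strand) for Cd3g, chr9:44981536-44981835 (plus strand) for Cd3d and chr6:71373177-71373476 (plus strand) for Cd8a. Capitals mark matches, on either strand, to 1 of 4 motifs of factor families that act in T cells. The RUNX family was searched as TGTGGT. The ETS family was searched as CAGGAA. For the GATA family the letters were AGATAA, and for the TCF/LEF family they were CTTTGA.
Cd3e: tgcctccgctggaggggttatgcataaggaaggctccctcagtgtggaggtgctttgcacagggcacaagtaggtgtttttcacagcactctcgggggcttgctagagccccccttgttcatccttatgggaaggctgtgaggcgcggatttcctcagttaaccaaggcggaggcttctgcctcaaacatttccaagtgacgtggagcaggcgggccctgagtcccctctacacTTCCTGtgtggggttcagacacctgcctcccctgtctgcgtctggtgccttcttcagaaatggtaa
Cd3g: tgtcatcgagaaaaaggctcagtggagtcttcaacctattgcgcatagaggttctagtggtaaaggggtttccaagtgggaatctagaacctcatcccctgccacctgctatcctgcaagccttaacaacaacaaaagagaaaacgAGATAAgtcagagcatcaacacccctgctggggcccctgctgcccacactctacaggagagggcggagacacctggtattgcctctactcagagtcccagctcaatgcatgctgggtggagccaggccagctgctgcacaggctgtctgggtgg
Cd3d: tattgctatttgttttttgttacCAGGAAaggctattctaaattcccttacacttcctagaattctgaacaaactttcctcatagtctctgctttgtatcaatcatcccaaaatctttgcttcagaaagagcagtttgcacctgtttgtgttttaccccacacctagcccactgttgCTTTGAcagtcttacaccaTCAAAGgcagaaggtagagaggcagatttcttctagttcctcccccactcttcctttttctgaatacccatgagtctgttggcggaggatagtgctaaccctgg
Cd8a: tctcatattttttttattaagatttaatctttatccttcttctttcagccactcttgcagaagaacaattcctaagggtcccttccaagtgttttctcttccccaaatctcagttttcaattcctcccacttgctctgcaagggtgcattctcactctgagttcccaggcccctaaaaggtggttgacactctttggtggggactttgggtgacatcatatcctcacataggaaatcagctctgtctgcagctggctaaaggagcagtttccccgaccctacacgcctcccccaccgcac
The Cd3e promoter held 1 match, to the ETS motif on the opposite strand, beginning 16 bases before the start. The Cd3g promoter held 1 match to the GATA motif, and the Cd3d promoter held 1 ETS match and 2 TCF/LEF matches. None of the 4 motifs was found in the Cd8a window. No match overlapped another. Of all 32851 promoters of this length, 16.8% held the RUNX motif, 30.6% the ETS motif, 11.2% the GATA motif, 16.0% the TCF/LEF motif and 55.1% at least 1 of them. The matches are a description of these letters; binding was not measured.

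**Figure D2:**
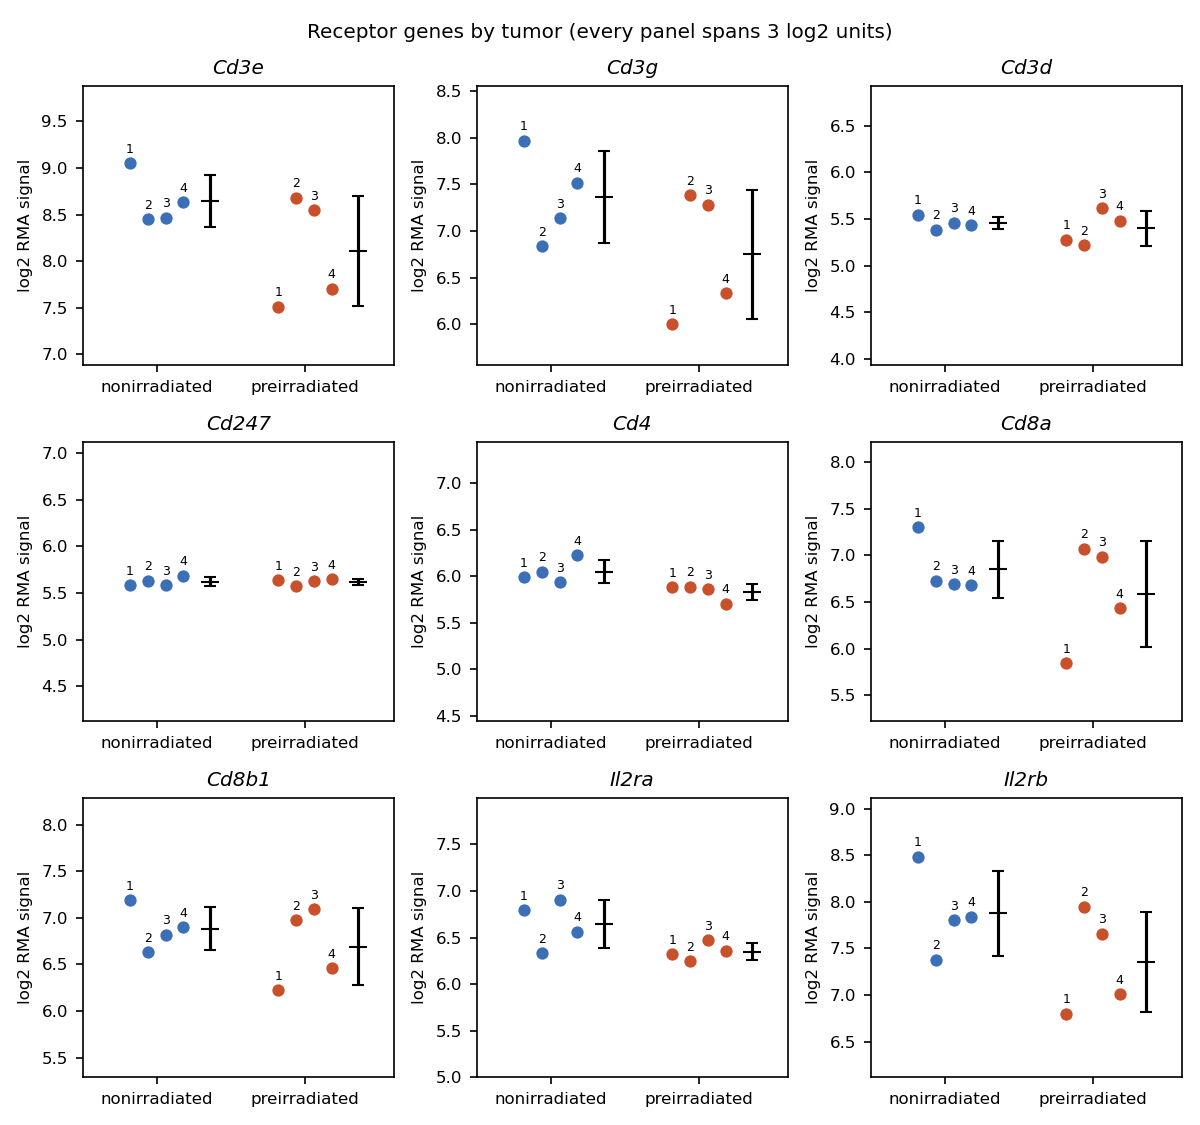
Log2 RMA signal of 9 receptor genes on the vertical axis, 1 point per tumor with its number, nonirradiated tumors on the left and preirradiated on the right of each panel; the black bar is the mean ± SD of 4 tumors. Cd3e, Cd3g, Cd8a and Il2rb reach their lowest values in preirradiated tumor 1, at 7.51, 5.999, 5.84 and 6.80, while Cd3d and Cd247 span 0.40 and 0.11 over all tumors.

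Among the coreceptors, the helper marker and the cytotoxic markers varied differently. Cd4 (probe set 10547894) was 5.99, 6.05, 5.94 and 6.23 in nonirradiated tumors and 5.88, 5.89, 5.86 and 5.71 in preirradiated tumors. All 4 preirradiated values lay below all 4 nonirradiated values, by a narrow gap. Cd4, with a mean of 5.94 over the 8 tumors, lay below the median over all probe sets (5.97). Its difference was -0.22 (SE 0.071, 95% interval -0.38 to -0.052), or 1.16-fold, with an unadjusted p of 0.0157 and a limma adjusted p of 0.79. Cd4 kept an unadjusted p under 0.05 without any single tumor, and its difference was -0.16 without nonirradiated tumor 4, the tumor with high Glycam1 and Cd79a. The CD4 molecule is also made by some macrophages and dendritic cells. The summed signal of 8 macrophage markers was 14.0 to 14.2 (log2) in nonirradiated and 13.9 to 14.0 in preirradiated tumors. All 8 had a lower mean in the preirradiated group, where 52.6% of all genes were lower. An unadjusted p under 0.05 (limma) was reached by 4 of the 8, all lower, against 3.27% of all genes. The groups did not overlap for 1, Cd68, which was lower, as were 1.95% of all genes. The part of macrophages in the Cd4 difference was not tested. Cd40lg, the helper cell ligand that activates B cells and dendritic cells, lay between 4.68 and 4.80 in all 8 tumors. These values too were below the median over all probe sets (5.97).

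Cd8a (probe set 10538993), the alpha chain of the cytotoxic coreceptor, was 7.31, 6.73, 6.69 and 6.68 in nonirradiated and 5.84, 7.07, 6.99 and 6.44 in preirradiated tumors. Nonirradiated tumor 1 stood high and preirradiated tumor 1 low, and preirradiated tumors 2 and 3 exceeded 3 of the 4 nonirradiated tumors. The difference of -0.27 (SE 0.28, 95% interval -0.90 to 0.37) shrank to -0.020 without preirradiated tumor 1. Cd8b1 (probe set 10538979), the beta chain that marks conventional cytotoxic T cells, was 7.19, 6.63, 6.82 and 6.90 against 6.22, 6.98, 7.09 and 6.46. Its difference of -0.20 (95% interval -0.67 to 0.27) shrank to -0.040 without the same tumor. The groups overlapped for both chains.

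No kinase or adaptor below the receptor differed between the groups beyond the spread between tumors. Only Lat, with a mean of 6.68, lay above the median over all probe sets (5.97). Whether the other probe sets register T cell RNA in this tissue was not tested. Of the 8 analysed, 6 had a lower mean in preirradiated tumors, and the differences ran from -0.16 to 0.023, with a median of -0.035. Lat, the adaptor on which the signaling complex assembles, had the widest range over the 8 tumors, 0.51 log2 units, and Themis followed with 0.38. It was 6.85, 6.78, 6.66 and 6.74 in nonirradiated and 6.33, 6.71, 6.78 and 6.54 in preirradiated tumors, a difference of -0.16 (SE 0.096; limma adjusted p = 0.892). Its 2 lowest values were again those of preirradiated tumors 1 and 4, and the difference was -0.078 without the first of these. Zap70, the kinase that docks on the phosphorylated chains, ranged over 0.14 log2 units and the Tec family kinase Txk over 0.20. Trat1, an adaptor that stabilises the receptor complex, was 4.58, 4.59, 4.60 and 4.62 against 4.57, 4.65, 4.60 and 4.67. Ubash3a, a phosphatase-like suppressor of receptor signaling, differed by -0.088 (95% interval -0.18 to 0.0093), and Themis, needed for T cell selection in the thymus, by -0.12 (95% interval -0.29 to 0.051). Skap1 and Sh2d1a, adaptors of integrin activation and of SLAM family receptors, differed by -0.037 and -0.033.

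All 4 adhesion and surface receptors had a lower mean in preirradiated tumors, by small amounts, with a median of -0.077. The adhesion receptor Cd2 differed by -0.090, the scavenger-type receptors Cd5 and Cd6 by -0.064 and -0.053, and Cd96, a nectin receptor of T and NK cells, by -0.10. Every interval included 0. Mean signals of Cd2, Cd6 and Cd96 were below 5.97, the median over all probe sets. Cd96 reached 6.05 in nonirradiated tumor 1 and was at most 5.85 elsewhere. Without that tumor its difference was -0.0032.

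Costimulatory receptors gave no difference beyond the spread between tumors (median -0.060, or -0.014 without preirradiated tumor 4). Cd28, the first costimulatory receptor of naive cells, was 5.09, 5.20, 5.14 and 5.23 in nonirradiated and 5.19, 5.26, 5.19 and 5.13 in preirradiated tumors. The group difference was 0.028 (95% interval -0.075 to 0.13). The mean signal of Cd28 was below 5.97, the median over all probe sets. Of the TNF receptor family members, Cd27 differed by -0.079 (-0.014 without preirradiated tumor 1), Tnfrsf4 (OX40) by -0.0069 and Tnfrsf18 (GITR) by -0.094. Tnfrsf9, which encodes 4-1BB and is induced on activated T cells, differed by -0.13 (95% interval -0.56 to 0.31), and by 0.017 without preirradiated tumor 4. It was 9.11, 8.997, 9.63 and 9.50 in nonirradiated and 9.50, 9.23, 9.25 and 8.76 in preirradiated tumors. This order was not that of Cd3e, since preirradiated tumor 1 was among the 3 highest for Tnfrsf9 and the lowest for Cd3e. The part of cells other than T cells in the Tnfrsf9 signal was not tested.

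The receptor chains for interleukin-2 had the other large estimates. Il2rb (probe set 10430344), the beta chain that T and NK cells use for interleukin-2 and interleukin-15, was 8.48, 7.38, 7.81 and 7.84 in nonirradiated and 6.80, 7.95, 7.66 and 7.01 in preirradiated tumors. The difference was -0.53 (SE 0.30, 95% interval -1.22 to 0.17; limma adjusted p = 0.891), and without preirradiated tumor 2 it was -0.72 and passed the study's filter. It was -0.32 without nonirradiated tumor 1. Il2ra (probe set 10469278), the alpha chain carried by regulatory and activated T cells, was 6.79, 6.33, 6.91 and 6.56 against 6.32, 6.25, 6.47 and 6.36. Nonirradiated tumor 2 lay within the preirradiated range and the other 3 lay above it. Its difference was -0.30 (SE 0.12, 95% interval -0.57 to -0.026), with an unadjusted p of 0.0356 and a limma adjusted p of 0.84. Il2ra lost the unadjusted p of 0.05 when nonirradiated tumor 1 or 3, or preirradiated tumor 1, 2 or 4, was left out, with a difference of -0.21 without nonirradiated tumor 3. Without nonirradiated tumor 2 it was -0.40 and passed the study's filter. Il7r, the interleukin-7 receptor of naive and memory cells, had the largest estimate in the other direction. It was 6.61, 6.01, 6.52 and 6.63 against 6.64, 6.89, 6.57 and 6.32, a difference of 0.16 (95% interval -0.21 to 0.54) that was 0.019 without nonirradiated tumor 2, the lowest tumor.

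Regulators of T cell lineages and the effector cytokine interferon gamma did not separate the groups. Tbx21, Lef1, Ikzf3 and Ifng had mean signals below 5.97, the median over all probe sets. Whether these probe sets register T cell RNA in this tissue was not tested. Tbx21, the T-bet regulator of type 1 helper and cytotoxic cells, differed by -0.0038 (95% interval -0.13 to 0.13) and its target gene Ifng by -0.10 (95% interval -0.35 to 0.14). Ifng was 6.06 in nonirradiated tumor 1 and between 5.58 and 5.88 in the others, and its difference was -0.018 without that tumor. Gata3, the regulator of type 2 helper cells that mammary luminal epithelium also makes, lay between 10.4 and 10.7 in all tumors. Bcl11b, which fixes T cell commitment, differed by -0.052, and Ikzf3 (Aiolos) by -0.044. Both were highest in nonirradiated tumor 4, at 6.64 and 5.78, and without that tumor their differences were 0.0085 and 0.047. Lef1, a partner of the Wnt pathway in early T cells, was 5.58, 5.78, 5.58 and 5.74 against 5.64, 5.63, 5.69 and 5.79, a difference of 0.019.

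The variation lay in a few genes and a few tumors. Over the 8 tumors, 4 of the 34 genes (Cd3e, Cd3g, Cd8a and Il2rb) spanned at least 1 log2 unit, as did 2.1% of all genes, and 12 spanned at least 0.5, as did 12.1% of all genes. Preirradiated tumor 1 was the lowest tumor for 16 of the 34 genes and the highest for 0. Nonirradiated tumor 4 was the highest for 10 genes and nonirradiated tumor 1 for 9. Averaged over the 34 genes, the deviation from the mean of each gene was -0.19 in preirradiated tumor 1 and -0.13 in preirradiated tumor 4, against 0.062 and 0.033 in preirradiated tumors 2 and 3. The nonirradiated tumors stood at 0.14, -0.038, 0.029 and 0.096. Of the low preirradiated tumors, tumor 1 carried high skeletal muscle and adipocyte markers, and tumor 4 carried neither; tumor 3 carried high muscle markers and was not low.

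**Figure D3:**
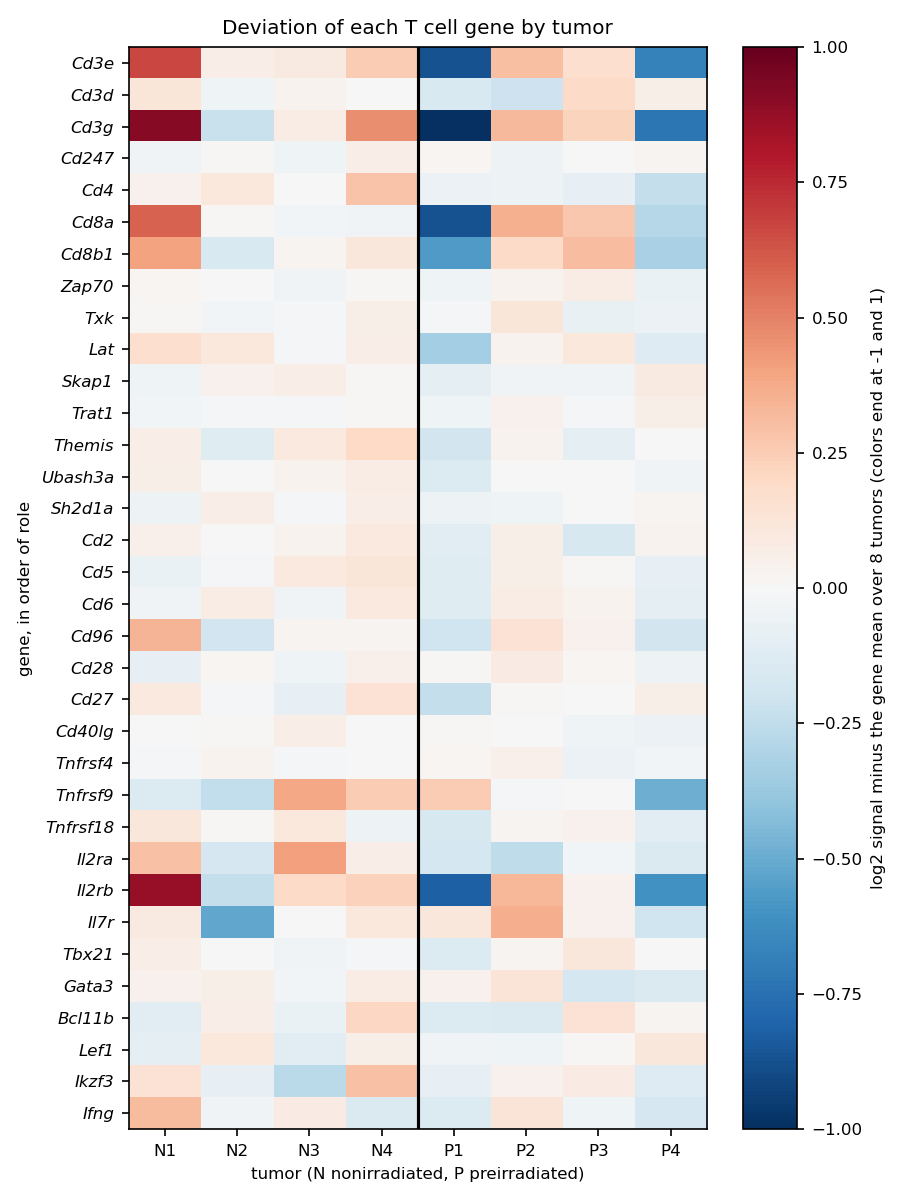
Deviation of the log2 signal from the mean of the gene over 8 tumors, as color (scale ends at -1 and 1), for 34 genes in rows ordered by role and 8 tumors in columns (N nonirradiated, P preirradiated). Preirradiated tumor 1 is the lowest tumor for 16 genes, and the strong colors lie in a few rows, those of Cd3e, Cd3g, Cd8a, Cd8b1 and Il2rb.

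Cd3e was used as the reference for which other genes varied with T cell signal over the tumors. In 33 relations over 8 tumors, 8 genes passed a Benjamini-Hochberg adjusted p of 0.05 in an exact two-sided permutation test of Pearson's r, all positive. They were Cd3g, Il2rb, Cd8b1, Lat, Cd8a, Tnfrsf18, Ubash3a and Cd96. For Cd3g r was 0.98 (exact permutation p = 7.44e-05, adjusted p = 0.00246) and Spearman's rho was 0.98 (exact permutation p = 0.000397). For Il2rb r was 0.96 (exact permutation p = 0.000198, adjusted p = 0.00327) with a rho of 0.98 (exact permutation p = 0.000397). For Cd8a r was 0.92 (exact permutation p = 0.000446, adjusted p = 0.00368) with a rho of 0.83 (exact permutation p = 0.0154). By Spearman's rho 4 genes passed the adjustment, Cd3g, Il2rb, Cd8b1 and Cd96.

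A gap of 0.75 separated Cd3e in preirradiated tumors 1 and 4 from the other 6 tumors, so r over 8 tumors rests in part on that gap. Without these tumors, the 2 farthest from the median, 6 tumors allow no exact permutation p below 0.00139, so that an adjustment over 33 relations is hard to pass. None passed it (0 of 33, smallest adjusted p = 0.0688) and 4 had an unadjusted p under 0.05, all among the 8 genes. Those 4 were Cd3g (r = 0.94, exact permutation p = 0.00417), Il2rb (r = 0.94, exact permutation p = 0.0111), Cd96 (r = 0.91, exact permutation p = 0.00417) and Cd8a (r = 0.84, exact permutation p = 0.025). The other 4 did not reach it. Their r was 0.77 for Cd8b1 (exact permutation p = 0.0667) and 0.64 for Lat (exact permutation p = 0.179). For Tnfrsf18 it was 0.37 (exact permutation p = 0.499) and for Ubash3a 0.47 (exact permutation p = 0.368). Among these 4, r fell most for Tnfrsf18 and Ubash3a, from 0.86 and 0.85 over 8 tumors. With 6 tumors a missed p does not show that a relation rests on preirradiated tumors 1 and 4. Cd3d had an r of 0.30 over 8 tumors (exact permutation p = 0.476) and a rho of 0.19 (exact permutation p = 0.665). Cd4 had an r of 0.53 (exact permutation p = 0.178) and a rho of 0.43 (exact permutation p = 0.299). For Il2ra r was 0.47 (exact permutation p = 0.219) and for Tnfrsf9 it was 0.091 (exact permutation p = 0.824). Groups of 4 tumors are too small for values within a group. With group means removed, an alternative chosen after the data were seen, 8 genes passed: 6 of those named above, without Tnfrsf18 and Ubash3a, and in addition Zap70 and Tbx21. Removing the means ties the values of a group to each other. The permutation over 8 tumors is then not exact, and its p-values can be too small.

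**Figure D4:**
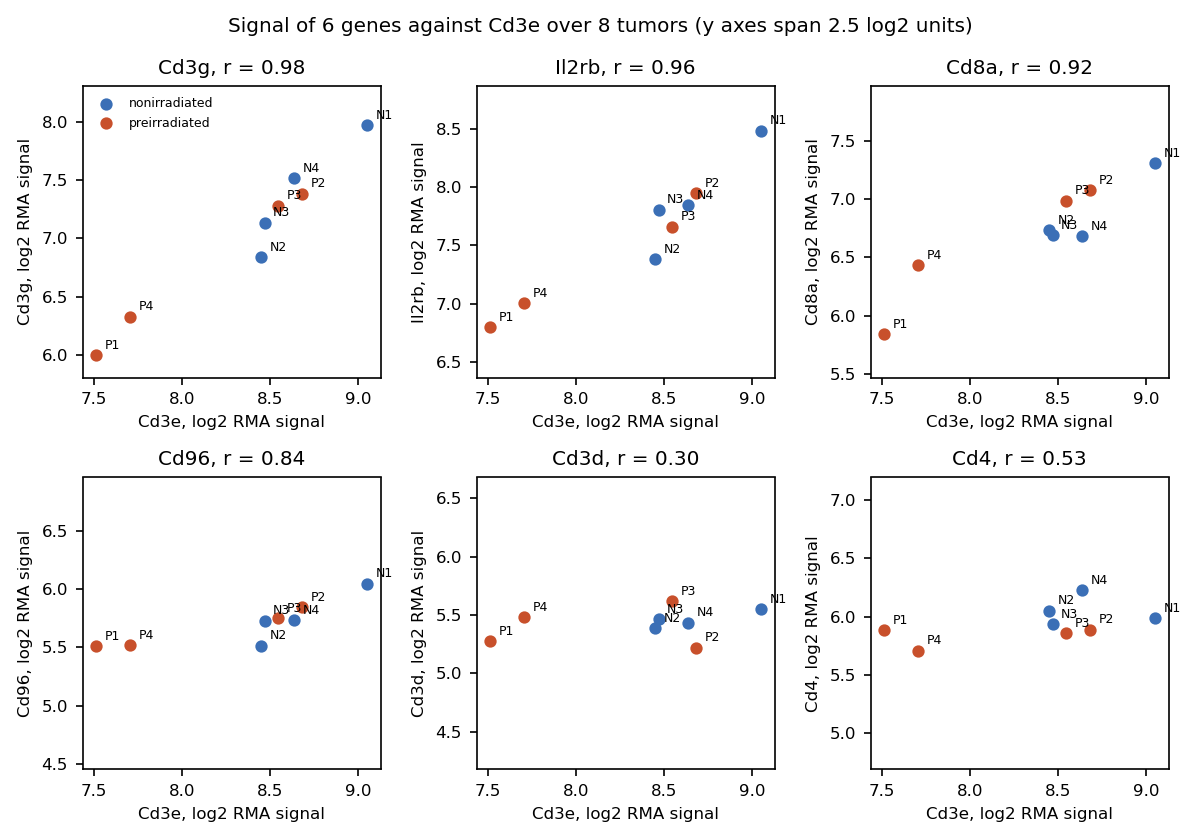
Log2 signal of 6 genes (vertical axes, each spanning 2.5 units) against that of Cd3e (horizontal axis) over 8 tumors, 1 point per tumor, with Pearson's r over 8 tumors above each panel. Preirradiated tumors 1 and 4 (P1, P4) lie at 7.51 and 7.70 on the Cd3e axis, apart from the other 6 at 8.45 or more.

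Other genes of the pathway, outside the 37, also differed little between the groups. Of 25 further receptor signaling genes 23 were analysed: 13 had a lower mean in preirradiated tumors and 10 a higher one, the median difference was -0.023 (-0.0067 without preirradiated tumor 1), and 2 had an unadjusted p under 0.05, both lower. Over all genes 52.6% were lower, and 3.27% as lower and 2.39% as higher reached that p. Lcp2, the adaptor SLP-76 that Zap70 phosphorylates and that myeloid cells also use, was 9.84 ± 0.11 in nonirradiated and 9.58 ± 0.13 in preirradiated tumors, a difference of -0.26 (unadjusted p = 0.011, limma adjusted p = 0.773; n = 4 each). Bcl10, which links the receptor to NF-κB, differed by -0.14 (unadjusted p = 0.0376, limma adjusted p = 0.84). Of 23 further T helper genes 21 were analysed: 13 were lower and 8 higher on average, with a median of -0.021 (-0.00098 without nonirradiated tumor 1), and 2 lower and 1 higher had an unadjusted p under 0.05, against 5.66% of all genes in either direction. Stat4, which carries interleukin-12 signals, differed by -0.15 and Il4, the type 2 helper cytokine, by 0.090. They had the 2 smallest unadjusted limma p of the list, 0.0297 and 0.041 (limma adjusted p = 0.825 and 0.842). Mean signals of both were below 5.97, the median over all probe sets, and Il4 spanned 0.18 log2 units over the 8 tumors.

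Cytotoxic and NK cell markers differed in how widely they varied. Ranges over the 8 tumors ran from 0.055 log2 units for Klre1 to 2.5 for Nkg7. Mean signals of Klre1, Klrb1c, Ncr1, Gzma, Klrd1 and Klrk1 lay below 5.97, the median over all probe sets. Whether these probe sets register RNA of cytotoxic or NK cells in this tissue was not tested. Of 10 genes 9 had a lower mean in preirradiated tumors, with a median of -0.14 (-0.072 without nonirradiated tumor 1 and -0.078 without preirradiated tumor 1), and the summed signal was 9.63 to 10.8 (log2) in nonirradiated and 9.26 to 10.2 in preirradiated tumors. The defining NK cell markers Ncr1 and Klrb1c lay between 4.88 and 5.12 and between 4.47 and 4.63 in all 8 tumors. Nkg7, a granule protein of cytotoxic cells named here after its values were seen, was 9.10, 7.85, 8.46 and 8.29 in nonirradiated and 6.60, 8.86, 8.49 and 7.38 in preirradiated tumors. It was thus highest in nonirradiated tumor 1 and lowest in preirradiated tumors 1 and 4, as Cd3e was. Prf1, the pore-forming perforin, was 8.38, 7.12, 8.22 and 8.12 against 7.12, 7.08, 7.28 and 7.09, and was low in preirradiated tumors 2 and 3 as well, where Cd3e was not. Its difference was -0.82 (SE 0.25, limma adjusted p = 0.773) and passed the study's filter, as did 0.487% of all genes in either direction. The part of cytotoxic cells other than T cells in these values was not tested.

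Genes that interferon gamma induces were lower on average in preirradiated tumors. Of 9 such genes 7 were analysed, all 7 with a lower mean, and the median difference was -0.35. The list leaned on single tumors. Without preirradiated tumor 1, 5 of 7 were lower, Nlrc5 and Ido1 were higher by 0.092 and 0.018, and the median was -0.17. It was also -0.17, with 5 of 7 lower, without nonirradiated tumor 1, and -0.62 without preirradiated tumor 2. None (0 of 7, limma, 8 tumors) had an unadjusted p or an adjusted p under 0.05. Gbp3, a guanylate-binding protein gene, differed by -0.59 (95% interval -1.20 to 0.020; -0.33 without preirradiated tumor 1) and the chemokine gene Cxcl10, whose product draws T cells, by -0.59 (95% interval -1.23 to 0.059; -0.36 without it). Their summed signal was lowest in preirradiated tumor 1, at 11.9, and highest in nonirradiated tumor 1, at 13.2, the same tumors that were lowest and highest for Cd3e.

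General leukocyte genes were also lower on average in preirradiated tumors. All 7 epithelial markers had a higher mean there, with a median difference of 0.21, but without preirradiated tumor 2 the median was 0.074 and Cldn4 was lower. That median was 0.12 without nonirradiated tumor 3 and 0.34 without preirradiated tumor 3. The keratin Krt7 did not overlap between the groups and differed by 0.39 (SE 0.081, unadjusted p = 0.00118, limma adjusted p = 0.62). The basal keratin Krt14 differed by 0.87 (SE 0.29, unadjusted p = 0.0155, limma adjusted p = 0.79) and passed the study's filter. Over all genes 1.7% were higher without overlap, 2.39% reached an unadjusted p under 0.05 as higher and 0.487% passed the filter in either direction. The 7 B cell markers analysed had a median difference of -0.094 that rested on nonirradiated tumor 4. Without that tumor 3 of 7 were lower and the median was 0.0011. All 6 pan-leukocyte genes had a lower mean in preirradiated tumors, with a median difference of -0.16 (-0.095 without preirradiated tumor 4), and Ptprc differed by -0.19 (unadjusted p = 0.0178, limma adjusted p = 0.809). The part of these shifts in the T cell differences was not tested. Taking each value relative to the mean of these 6 genes on its array adds 1 constant to the difference of every gene, and moved the median of all genes from -0.0038 to 0.15. By construction this leaves the median of the 34 T cell genes minus that of all genes at -0.066. A comparison with the median of all genes after the scaling therefore carries no new information. Relative to the 6 leukocyte genes, 26 of the 34 T cell genes were higher in preirradiated tumors and 8 were lower. Those 8 were Cd3e, Cd3g, Cd4, Cd8a, Cd8b1, Lat, Il2ra and Il2rb. The median over the 34 T cell genes was then 0.084. It was 0.12 for kinases and adaptors, 0.076 for adhesion receptors, 0.094 for costimulatory receptors and 0.11 for lineage regulators. The medians of the receptor complex, the coreceptors and the cytokine receptors stayed negative. Before the scaling they were -0.30, -0.22 and -0.30.

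**Figure D5:**
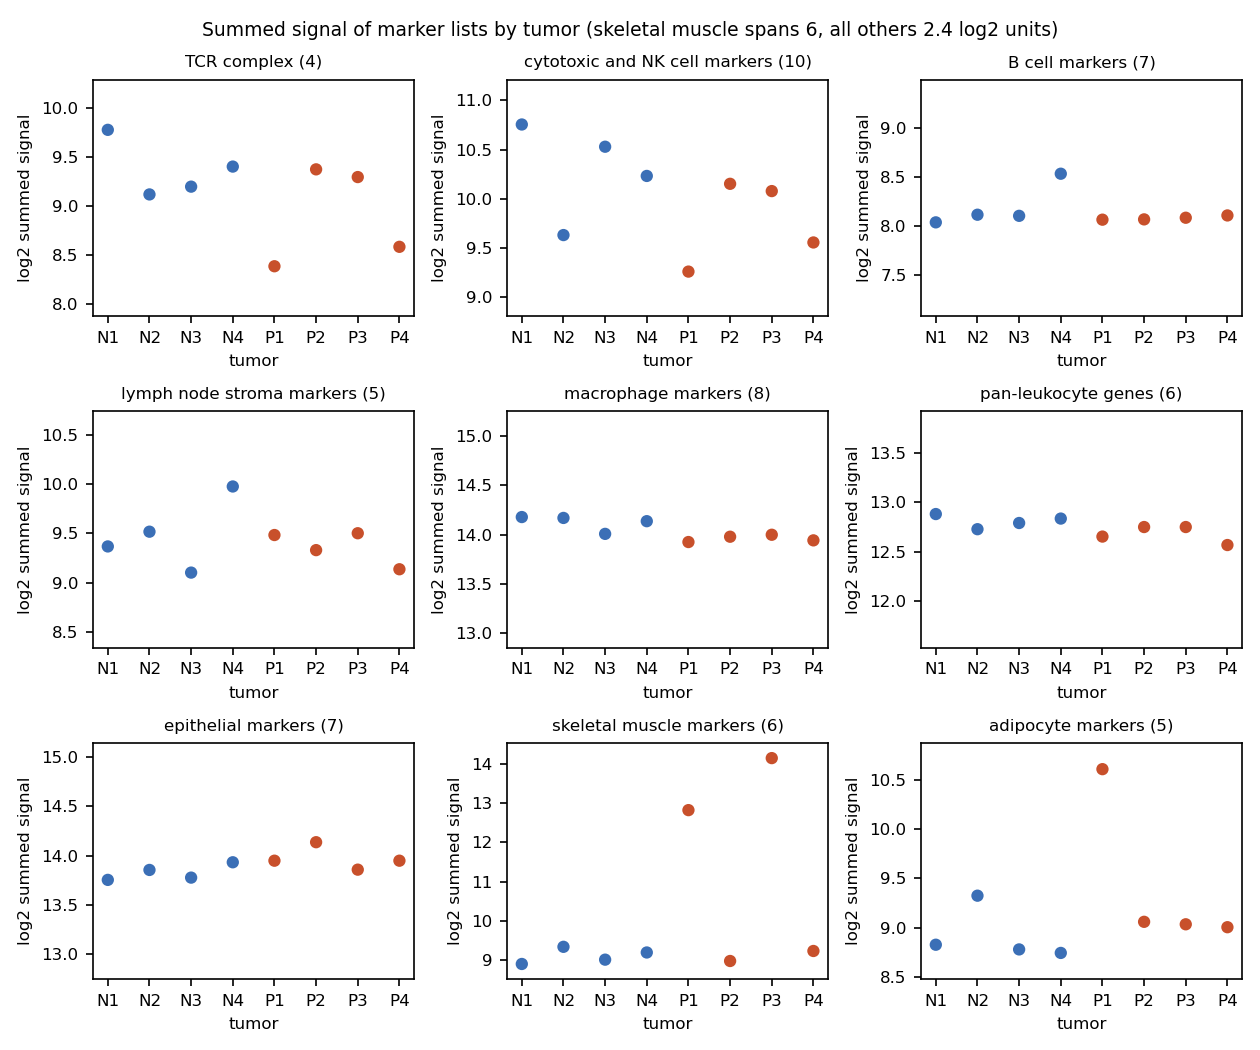
Log2 of the summed linear signal of 9 gene lists (number of genes in brackets) for each of 8 tumors (N nonirradiated, blue; P preirradiated, orange); the skeletal muscle panel spans 6 log2 units and the others 2.4. The receptor complex list is lowest in preirradiated tumors 1 and 4, muscle markers are high in preirradiated tumors 1 and 3, and lymph node markers are highest in nonirradiated tumor 4.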

How the data were processed

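Each of the 8 tumors has 1 Affymetrix GeneChip array (Mouse Gene 1.0 ST). The authors deposited log2 signals of probe sets, made by RMA with the affy package per the series' design text; R 2.15.3 is named in the submitters' processing notes. No chip description file or genome build is given in the sources used here. RMA makes arrays alike, so a change in total RNA cannot be seen; the number of arrays limits the precision. Of 34760 probe sets, 34738 had a mean of at least 4.0, the study's expression limit. The platform annotation gave 1 symbol to 21640 probe sets, several to 1321 and none to 11799. The group difference, preirradiated minus nonirradiated, came from limma 3.58.1 (lmFit and eBayes on the 8 arrays, two-sided, R 4.3.3) with p-values adjusted over all tested probe sets; the fit was tested on simulated data. Summed signals of marker lists are log2 of summed linear values. Correlations used exact permutations of 8 tumors in Python 3.11.15, which are not exact where group means were removed. Values in every tumor are given for the receptor complex, the coreceptors, genes at an unadjusted p under 0.05 and the 4 largest differences in each direction; values in every tumor of Lat, Tnfrsf9, Nkg7 and Prf1 were added after they were seen. The genes and lists were chosen with earlier results of these data known. Alternatives covered expression limit, variance model, scaling, weights, replicate numbers, probe set choice, thresholds and left-out tumors.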

Additional observations from a re-analysis of the deposited data

Results flagged for a closer look

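In a group of 4 tumors, a tumor was picked out where its distance to the nearest other, divided by the range of the group, exceeded Dixon's critical value for 4 samples. Of 68 groups tested (34 genes in each group of tumors) this held for 2, where chance gives about 5% of groups. Cd8a was 7.31 in nonirradiated tumor 1, against 6.68 to 6.73 in the other 3 tumors. Cd4 was 5.71 in preirradiated tumor 4, against 5.86 to 5.89 in the others.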

How the results depend on the processing

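In 19 alternative fits 0 of the 34 T cell genes passed an adjusted p of 0.05 (limma, smallest 0.273), and in the 18 fits other than the pan-leukocyte scaling 20 of 34 kept the direction of their difference wherever tested and 14 changed it at least once. With a mean of at least 6.0, 14 genes were left, of which 13 were lower and 1 (Il2ra) had an unadjusted p under 0.05, none had groups apart (0), and the median differences were -0.58 for the receptor complex (2 genes left) and -0.16 for kinases and adaptors (Lat alone). Relative to pan-leukocyte genes, a constant shift of every difference that raised the median of all genes to 0.15 and turns small negative differences by construction, 8 genes were lower, 0 had groups apart with lower values, and the 1 gene at an unadjusted p under 0.05 (Il7r) was higher. The median over the genes became 0.084, with 0.12 for kinases and adaptors, 0.076 for adhesion receptors, 0.094 for costimulation and 0.11 for lineage regulators. Medians of the receptor complex, the coreceptors and the cytokine receptors stayed negative. The genes that stayed lower were Cd3e, Cd3g, Cd4, Cd8a, Cd8b1, Lat, Il2ra and Il2rb. Cd3e varied with 4 genes, and 41 of all probe sets passed the adjustment. Single genes that turned under this scaling were Cd3d 0.095, Txk 0.14, Skap1 0.12, Themis 0.031, Ubash3a 0.065, Sh2d1a 0.12, Cd2 0.063, Cd5 0.089, Cd6 0.0997, Cd96 0.053, Cd27 0.074, Cd40lg 0.11, Tnfrsf4 0.15, Tnfrsf9 0.028, Tnfrsf18 0.059, Tbx21 0.15, Gata3 0.079, Bcl11b 0.10, Ikzf3 0.11 and Ifng 0.048. With each array centred on its median, 3 genes (Cd4, Ubash3a and Cd40lg) had groups apart and 33 genes were lower, with Cd247 -0.033, Zap70 -0.033, Trat1 -0.011, Cd28 -0.0057 and Lef1 -0.015. A further quantile normalization gave Cd247 -0.022, Zap70 -0.022 and Lef1 -0.0063, and array weights gave Tbx21 0.013 and Ikzf3 0.0052. Leaving out both preirradiated tumors high in muscle genes left 1 gene at an unadjusted p under 0.05 (Cd4), 2 with groups apart (Cd4 and Ubash3a), 4 that varied with Cd3e and 25 lower, with Cd247 -0.0094, Zap70 -0.015, Txk 0.026, Skap1 0.010, Cd2 0.0011, Tnfrsf4 0.0079 and Tbx21 0.0069. Spearman's rho gave 4 genes that varied with Cd3e. A limit of 0.3 on the difference left 0 past the study's filter.

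Leaving out 1 tumor gave 1 to 4 genes at an unadjusted p under 0.05, 0 to 2 past the study's filter, 1 to 4 with groups apart, 25 to 31 lower, a median difference of -0.096 to -0.029, and 4 to 9 genes that varied with Cd3e (4 without preirradiated tumor 1 or 4). Genes whose direction turned had ranges of Bcl11b -0.11 to 0.0085, Cd247 -0.012 to 0.022, Cd3d -0.13 to 0.0016, Ikzf3 -0.14 to 0.047, Lef1 -0.015 to 0.057, Tbx21 -0.043 to 0.042, Tnfrsf4 -0.024 to 0.011, Tnfrsf9 -0.23 to 0.017, Txk -0.055 to 0.011 and Zap70 -0.024 to 0.023. Of the marker lists, left out by tumor as an alternative added after the data were seen, medians ran from -0.13 to 0.0011 for B cell genes, 0.074 to 0.34 for epithelial genes and -0.62 to -0.17 for interferon-gamma induced genes. Tumors with the same number did not deviate together (correlations from -0.29 to -0.075), so the numbers were taken as names only; with the replicate number as a block, 1 gene (Il2ra) instead of 2 had an unadjusted p under 0.05 and no direction changed. Where no count of genes or tumors shows the cause of a change, the cause was not tested.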
